A study of Homo sapiens with 12 samples.

Results

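The respiratory chain was followed through the messenger RNAs of its subunits, which come from 2 genomes. Members were taken from the deposited count table by name: the MT-ND, MT-CO, MT-CYB and MT-ATP genes of the mitochondrial genome, and the NDUFA, NDUFB, NDUFC, NDUFS and NDUFV, SDH, UQCR and ATP5 families of the nuclear genome with the COX5A to COX8C subunits of complex IV. COX4I1 and COX4I2 fall outside these names. These names matched 164 of 43557 rows, 13 from the mitochondrial genome and 151 from the nuclear genome. Of the nuclear rows, 83 were protein-coding genes, 65 were pseudogenes, and the others were a read-through gene, an antisense RNA and a divergent transcript.

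Poly(A) RNA had been sequenced from 12 libraries of human bladder cancer cells, in 4 groups of 3: T24 shFTO, T24 shNC, RT4 shFTO and RT4 shNC. T24 and RT4 are established bladder tumour lines. Libraries labelled shFTO carry a short hairpin RNA against FTO, an enzyme that removes methyl groups from adenosines in RNA, and those labelled shNC are the controls. The labels name no treatment or time, do not say how many hairpins or clones were used, and leave unsaid whether replicates came from separate cultures. The p-values therefore cover library-to-library spread, which may be technical. The batch number, from 1 to 3, equals the replicate number of each library, so each holds 1 library of every group. No methods text states that libraries of the same number were handled together.

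The libraries did not all match their labels. FTO was 25.5 ± 1.09 CPM in T24 shFTO, against 35.2 ± 1.25 CPM in T24 shNC (log2 change -0.46, edgeR BH-adjusted p = 1.93e-07), but 68.9 ± 3.29 CPM in RT4 shFTO, against 46.2 ± 1.01 CPM in RT4 shNC (log2 change 0.58, edgeR BH-adjusted p = 4.19e-09). Levels are counts scaled by TMM and library size (CPM), given as mean ± SD over 3 libraries. Of 14 urothelial markers, the number that reached 10 CPM was 4 in T24 shFTO, 3 in T24 shNC, 3 in RT4 shFTO and 0 in RT4 shNC. The uroplakin genes UPK1B and UPK3A had 0 counts in T24 shNC, RT4 shFTO and RT4 shNC. The 14 markers summed to 265 to 274 CPM in T24 shFTO, against 1354 to 1431 CPM in T24 shNC, and to 183 to 190 CPM in RT4 shFTO, against 19.9 to 23.3 CPM in RT4 shNC. The 10 hepatocyte markers, of which 9 reached 10 CPM in T24 shFTO, summed to 21750 to 22750 CPM in T24 shFTO, against 6.66 to 8.21 CPM in T24 shNC. The 9 fibroblast markers, of which 6 reached 10 CPM in RT4 shFTO, summed to 7431 to 7766 CPM in RT4 shFTO, against 1.31 to 1.77 CPM in RT4 shNC. Groups are named as labelled, and the part of these markers in the results that follow was not tested. In bulk RNA, fewer cells of a type and less RNA per cell cannot be told apart. Library totals ran from 31291047 to 102798895 counts.

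The respiratory chain passes electrons from NADH and succinate to oxygen through complexes I to IV of the inner mitochondrial membrane and stores the energy as a proton gradient, which complex V, the ATP synthase, uses to make ATP. Complexes I, III, IV and V each combine subunits encoded in mitochondrial DNA with subunits encoded in the nucleus, made in the cytosol and imported, while complex II is wholly nuclear. The mitochondrial genes are transcribed as long polycistronic RNAs that are cut into mature messages, so their transcripts share promoters, whereas each nuclear subunit gene has its own promoter and chromosomal surroundings.

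Pairs of mitochondrial messages overlap in sequence. The next lines show the overlaps in the human reference mitochondrial genome (GENCODE v29, GRCh38, plus strand), with the shared bases in capitals and 12 bases of each neighbour in lower case. They are shown because a read that touches the capitals falls on both genes.
MT-ATP8 and MT-ATP6: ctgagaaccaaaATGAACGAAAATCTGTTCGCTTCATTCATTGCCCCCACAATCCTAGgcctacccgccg
MT-ND4L and MT-ND4: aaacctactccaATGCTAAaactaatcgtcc
The overlap spans positions 8527 to 8572 (46 bases) for MT-ATP8 and MT-ATP6, and positions 10760 to 10766 (7 bases) for MT-ND4L and MT-ND4. Each pair is carried on a shared mature message, so the members of a pair are not independent measurements. How reads that fall on both genes were counted is not given in the sources used here. MT-ATP8 spans 207 bases and MT-ND4L 297, and their levels are uncertain to that extent.

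All 13 mitochondrial members passed the filter on low counts. Of them, 11 rose in T24 shFTO relative to T24 shNC and 0 fell, where edgeR's quasi-likelihood test called 78% of all 23070 tested genes, 37.2% up and 40.8% down. In RT4 shFTO relative to RT4 shNC, 13 rose and 0 fell, where 78.6% of all genes were called, 38.6% up and 40% down. The median log2 change of the 13 was 0.88 in T24 and 0.81 in RT4, beside -0.05 and -0.0038 over all tested genes. The 2 groups of 3 libraries did not overlap for 11 members in T24 and 13 in RT4, where 79.6% and 79.9% of all genes did not overlap. With library totals as the only scaling, the median of all genes was -0.23 in T24 and -0.27 in RT4, and 9 and 10 mitochondrial members were called up, with medians of 0.70 and 0.54.

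MT-CYB, cytochrome b, the electron-carrying mitochondrial subunit of complex III, had 4425, 5026 and 4657 CPM in T24 shFTO, against 2022, 2141 and 2158 CPM in T24 shNC. That is a log2 change of 1.16 (SE 0.079, edgeR BH-adjusted p = 8.46e-08). Its level was 6083, 5918 and 6023 CPM in RT4 shFTO, against 2592, 2763 and 2153 CPM in RT4 shNC (log2 change 1.26, SE 0.080, edgeR BH-adjusted p = 3.93e-08). The shFTO and shNC libraries did not overlap in either line, and the change did not differ by a called amount between them (T24 minus RT4, log2 difference -0.11, SE 0.11, edgeR BH-adjusted p = 0.42).

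Complex IV, cytochrome c oxidase, has its catalytic core from MT-CO1, MT-CO2 and MT-CO3. MT-CO3 was 9324, 9711 and 9534 CPM in T24 shFTO, against 5011, 5071 and 4882 CPM in T24 shNC (log2 change 0.93, SE 0.064, edgeR BH-adjusted p = 1.79e-08). In RT4 shFTO it was 7524, 7485 and 7831 CPM, against 4172, 5143 and 4192 CPM in RT4 shNC (log2 change 0.76, SE 0.064, edgeR BH-adjusted p = 1.58e-07). No library crossed between the groups.

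MT-CO2, which takes electrons from cytochrome c, had 12250, 9543 and 11800 CPM in T24 shFTO, against 6227, 6098 and 5860 CPM in T24 shNC (log2 change 0.89, SE 0.11, edgeR BH-adjusted p = 5.06e-05). It had 8070, 9770 and 8215 CPM in RT4 shFTO, against 2791, 3298 and 2841 CPM in RT4 shNC (log2 change 1.54, SE 0.11, edgeR BH-adjusted p = 7.94e-07). All shFTO libraries stood above all shNC libraries of their line, and the T24 change was below the RT4 change (log2 difference -0.66, SE 0.16, edgeR BH-adjusted p = 0.00375).

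MT-CO1, the subunit where oxygen is reduced, moved least of the mitochondrial members in RT4, and in T24 it lay beside MT-ND1, both at 0.14. Reads counted on MTCO1P12, a copy of MT-CO1 in nuclear DNA, are left out here. That copy held 14.2% of MT-CO1 plus copy in T24 shFTO, against 2.8% in T24 shNC. MT-CO1 was 16300, 18070 and 18090 CPM in T24 shFTO, against 15760, 16510 and 15430 CPM in T24 shNC, and these values overlapped (log2 change 0.14, SE 0.044, edgeR BH-adjusted p = 0.00956). With library totals as the only scaling the direction in T24 turned to -0.042 (edgeR BH-adjusted p = 0.394), and with upper-quartile scaling the call was lost (0.03, edgeR BH-adjusted p = 0.521). In RT4 shFTO the level was 22020, 21810 and 21030 CPM, against 16340, 17840 and 16350 CPM in RT4 shNC, with no overlap (log2 change 0.36, SE 0.044, edgeR BH-adjusted p = 1.28e-06). That call was lost on library totals (0.09, edgeR BH-adjusted p = 0.0689).

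The mitochondrial ATP synthase genes encode subunits of the membrane part, through which protons flow. MT-ATP6 was 7797, 8348 and 8407 CPM in T24 shFTO, against 4379, 4385 and 3730 CPM in T24 shNC (log2 change 0.97, SE 0.15, edgeR BH-adjusted p = 0.000324). In RT4 shFTO it was 6922, 7452 and 6597 CPM, against 2592, 2683 and 1732 CPM in RT4 shNC (log2 change 1.58, SE 0.16, edgeR BH-adjusted p = 1.2e-05). Both lines separated without overlap, and the T24 change was below the RT4 change (log2 difference -0.61, SE 0.22, edgeR BH-adjusted p = 0.0306). The call of that difference was lost without any 1 of the 3 T24 shFTO libraries, without T24 shNC replicate 1 or 2, and without RT4 shFTO replicate 1 or 2, with values between -0.56 and -0.62.

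MT-ATP8 was more variable. Its level was 1459, 1743 and 1704 CPM in T24 shFTO, against 801, 511 and 569 CPM in T24 shNC (log2 change 1.38, SE 0.52, edgeR BH-adjusted p = 0.0361). In RT4 it was 951, 1110 and 884 CPM in shFTO, against 309, 266 and 56.7 CPM in shNC (log2 change 2.23, SE 0.53, edgeR BH-adjusted p = 0.00426). RT4 shNC replicate 3 was far below its group, and without it the RT4 log2 change was 1.77 (edgeR BH-adjusted p = 0.00012). The T24 call was lost without any 1 of the 6 shFTO libraries and without T24 shNC replicate 2 or 3, with log2 changes between 1.25 and 1.46.

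Complex I, NADH dehydrogenase, takes 7 subunits of its proton-pumping membrane arm from the mitochondrial genome. Of these, 5 rose in T24 shFTO (71.4%, beside 37.2% of all genes) and 7 rose in RT4 shFTO (100%, beside 38.6% of all genes). MT-ND4 was 9434, 10290 and 10160 CPM in T24 shFTO, against 5522, 5258 and 5409 CPM in T24 shNC (log2 change 0.88, SE 0.11, edgeR BH-adjusted p = 5.91e-05), and 7707, 7787 and 6416 CPM in RT4 shFTO, against 4909, 5509 and 4014 CPM in RT4 shNC (log2 change 0.60, SE 0.11, edgeR BH-adjusted p = 0.000835). MT-ND2 rose by 0.80 in T24 and 0.74 in RT4, MT-ND4L by 0.78 and 0.81, and MT-ND5 by 0.60 and 0.94, with edgeR BH-adjusted p between 0.000148 and 0.014. The shFTO and shNC libraries of a line did not overlap for any of these genes. The MT-ND4L call was lost in T24 without shFTO replicate 2 (0.65, edgeR BH-adjusted p = 0.0506) and in RT4 on library totals (0.54, edgeR BH-adjusted p = 0.0639).

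MT-ND1, which sits where the membrane arm meets the peripheral arm, was 3690, 3882 and 3100 CPM in T24 shFTO, against 3415, 3240 and 3005 CPM in T24 shNC. The groups overlapped and the gene was not called (log2 change 0.14, SE 0.14, edgeR BH-adjusted p = 0.385), with a value of -0.036 on library totals. In RT4 shFTO it was 2855, 2409 and 2183 CPM, against 1660, 1799 and 1316 CPM in RT4 shNC (log2 change 0.64, SE 0.14, edgeR BH-adjusted p = 0.00284). MT-ND3 was 738, 804 and 681 CPM in T24 shFTO, against 313, 240 and 281 CPM in T24 shNC (log2 change 1.41, SE 0.32, edgeR BH-adjusted p = 0.00305). In RT4 it was 492, 543 and 494 CPM in shFTO, against 253, 469 and 173 CPM in shNC (log2 change 0.77, SE 0.31, edgeR BH-adjusted p = 0.0492), and this call was lost in 11 of the 12 fits that each left out a library, with edgeR BH-adjusted p between 0.0635 and 0.146. Without RT4 shNC replicate 2, the highest of its group, the MT-ND3 change was 1.26 (edgeR BH-adjusted p = 0.000302).

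MT-ND6 is the member transcribed from the opposite strand, and its end abuts that of MT-ND5. The sources used here do not give the strand setting, so reads of either strand cannot be told apart there. It had 298, 296 and 299 CPM in T24 shFTO, against 233, 184 and 191 CPM in T24 shNC, without overlap but not called (log2 change 0.55, SE 0.32, edgeR BH-adjusted p = 0.148). Without RT4 shNC replicate 3, the lowest library, the same T24 change was called (0.55, edgeR BH-adjusted p = 0.0007). In RT4 it was 817, 747 and 679 CPM in shFTO, against 409, 352 and 147 CPM in shNC (log2 change 1.31, SE 0.32, edgeR BH-adjusted p = 0.00504), or 0.96 without that library.

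**Figure D1:**
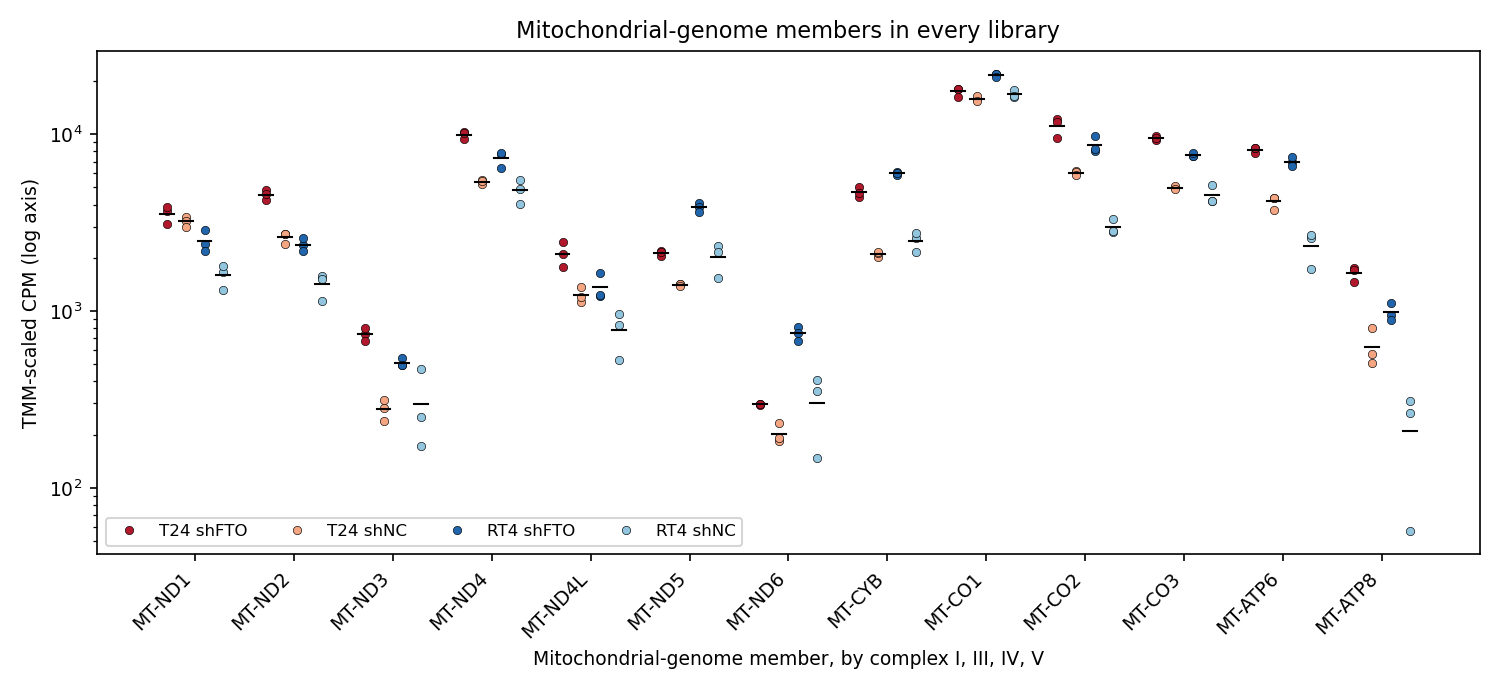
Level of each mitochondrial-genome member (TMM-scaled CPM, log axis) in every library, with the 4 groups side by side and black bars for group means. The shFTO points lie above the shNC points of their line for most genes. They overlap in T24 for MT-CO1 and MT-ND1, and MT-ATP8 in RT4 shNC reaches down to 56.7 CPM.

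Per kilobase of gene, the order of the mitochondrial messages was not the same in every group. MT-CO1 ranked first in T24 shNC (10310 ± 359 CPM per kb), RT4 shFTO (14020 ± 337) and RT4 shNC (10920 ± 559). In T24 shFTO the highest was MT-CO2 (16370 ± 2119 CPM per kb), then MT-CO3 (12150 ± 247), MT-ATP6 (12020 ± 494) and MT-CO1 (11340 ± 667), where the last 3 differed by less than 2 SD of MT-CO1. This order is uncertain, because reads counted on nuclear copies of these genes are left out. The copy MTATP6P1 held 25.6% of MT-ATP6 plus copy in T24 shFTO, against 10.6% in T24 shNC. MTCO1P12 held 14.2% of MT-CO1 plus copy in T24 shFTO, against 2.8% in T24 shNC. MT-CO2 at 8862 ± 272 CPM per kb was second in T24 shNC, and MT-CO3 at 5743 ± 707 was second in RT4 shNC. MT-ND6 ranked last in all 4 groups, at 566 ± 2.88 CPM per kb in T24 shFTO and 386 ± 51.1 in T24 shNC.

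Nuclear DNA holds copies of mitochondrial genes, some near-identical, and 145 rows of the table are named as copies of the members' genes. Of these, 14 passed the filter on low counts. Of the 14, 11 rose and 0 fell in T24, and 9 rose and 3 fell in RT4. Among all tested genes 37.2% rose and 40.8% fell in T24, and 38.6% rose and 40% fell in RT4. Some copies passed only through the group where they were high, so their directions do not count as a result. MTND4LP30 had 47, 42 and 47 counts in T24 shFTO, against 1, 1 and 2 in T24 shNC. MTCO1P47 had counts only in RT4 shNC (14, 36 and 26). The copy MTATP6P1 on chromosome 1 matches MT-ATP6 at 98.5% of bases. It had 2681, 2845 and 2929 CPM in T24 shFTO, against 572, 462 and 440 CPM in T24 shNC, and 527, 642 and 543 CPM in RT4 shFTO, against 0.436, 1.14 and 0.828 CPM in RT4 shNC. MTCO1P12, which matches MT-CO1 at 98.7%, had 2886 ± 214 CPM in T24 shFTO, against 458 ± 27.3 CPM in T24 shNC, and 277 ± 25.7 CPM in RT4 shFTO, against 222 ± 9.38 CPM in RT4 shNC.

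How reads that fit both a gene and its copy were counted is not given in the sources used here, so the division between them is uncertain. Copies made up 25.6% of the reads of MT-ATP6 plus MTATP6P1 in T24 shFTO, against 10.6% in T24 shNC, and 7.55% in RT4 shFTO, against 0.0343% in RT4 shNC. Copies above a minimum of counts, aligned length and identity were then added to their gene. With them, the T24 log2 change became 1.24 for MT-ATP6 (edgeR BH-adjusted p = 6.63e-05) and 0.32 for MT-CO1 (5.33e-06). The difference between the lines was then no longer called for MT-ATP6 (-0.45, edgeR BH-adjusted p = 0.0886) or MT-CO1 (-0.04, edgeR BH-adjusted p = 0.547), and it remained called for MT-CO2 (-0.66, edgeR BH-adjusted p = 0.0037).

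The mitochondrial ribosomal RNAs, which are not members, rose more in T24 than in RT4. MT-RNR2 was 5966 ± 116 CPM in T24 shFTO, against 2473 ± 122 CPM in T24 shNC (log2 change 1.27, edgeR BH-adjusted p = 3.17e-13), and 8065 ± 278 CPM in RT4 shFTO, against 6479 ± 463 CPM in RT4 shNC (log2 change 0.32, edgeR BH-adjusted p = 1.19e-05). This change was larger in T24 than in RT4 by a log2 value of 0.95 (edgeR BH-adjusted p = 1.1e-09). These RNAs are only in part caught by poly(A) selection.

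Of the 151 nuclear members, 85 passed the filter on low counts and 66 did not. The protein-coding genes that did not pass were COX7A1, COX7B2, COX8C and ATP5MGL. In T24 shFTO relative to T24 shNC, 18 of the 85 rose, 50 fell and 17 were not called, with a median log2 change of -0.53 beside -0.05 over all genes. Among all genes 37.2% rose and 40.8% fell. In RT4 shFTO relative to RT4 shNC, 30 rose, 32 fell and 23 were not called, a split near the 38.6% up and 40% down of all genes, with a median of 0.01. On library totals, where the median of all genes was -0.27, 20 rose and 45 fell in RT4. Restricted to the 79 tested protein-coding members, 17 rose and 48 fell in T24, and 27 rose and 32 fell in RT4. The other 6 tested rows were all pseudogenes, whose values are uncertain where reads could come from either the copy or its parent gene: 1 rose and 2 fell in T24, and 3 rose and 0 fell in RT4.

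Counted together, the nuclear members took 0.711% ± 0.0090 of all counts in T24 shFTO, against 1.05% ± 0.035 in T24 shNC, and 0.638% ± 0.0067 in RT4 shFTO, against 0.778% ± 0.037 in RT4 shNC. These shares are of raw counts, and the RT4 difference depends on that scale. TMM-scaled, the nuclear members summed to 7517 ± 148 CPM in T24 shFTO, against 9796 ± 362 CPM in T24 shNC, and to 7065 ± 65.1 CPM in RT4 shFTO, against 7152 ± 526 CPM in RT4 shNC, where the RT4 groups overlapped. The mitochondrial members took 7.20% ± 0.16 in T24 shFTO, against 5.17% ± 0.18 in T24 shNC, and 6.37% ± 0.27 in RT4 shFTO, against 4.42% ± 0.46 in RT4 shNC. Ratios of the 2 genomes do not depend on the scaling between libraries. There were 974, 1029 and 1036 mitochondrial counts per 100 nuclear counts in T24 shFTO, against 504, 518 and 457 in T24 shNC, a ratio of means of 2.06. RT4 shFTO had 1022, 1028 and 945 per 100, against 617, 584 and 504 in RT4 shNC, a ratio of means of 1.76. The shFTO libraries of the lines lay close together, and both stood clear of all 6 shNC libraries. No test was made of these sums.

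**Figure D2:**
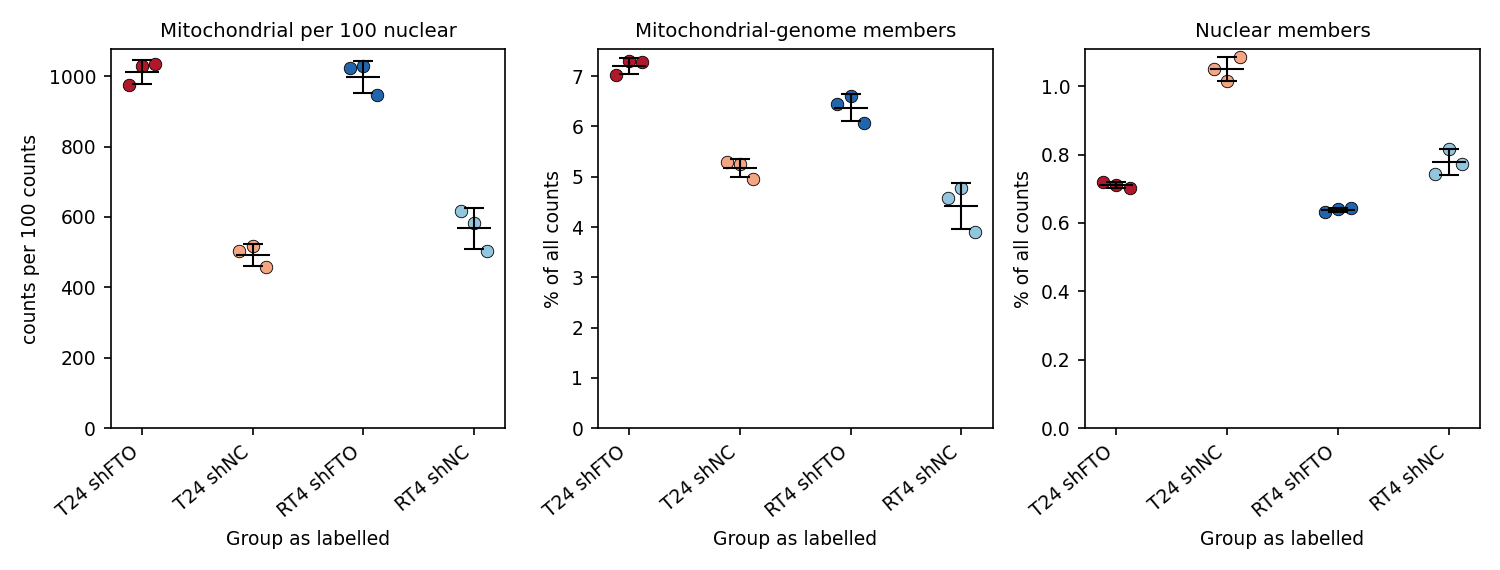
Mitochondrial counts per 100 nuclear counts (left), and the percent of all counts taken by the mitochondrial (middle) and nuclear (right) members, in each library of the 4 groups, with mean and SD. In both lines the ratio is higher in shFTO than in shNC libraries, at 945 to 1036 against 457 to 617, while the nuclear share of raw counts is lower. On the TMM scale the summed nuclear level of RT4 shFTO was 0.988 times that of RT4 shNC.

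Complex I draws most of its subunits from the nucleus, among them the iron-sulphur and flavin proteins that carry electrons from NADH (NDUFV and NDUFS) and many small accessory subunits (NDUFA, NDUFB and NDUFC). NDUFA4 was counted with complex IV and not here. Of 36 nuclear complex I members tested, 11 rose and 20 fell in T24, and 12 rose and 12 fell in RT4. These are 30.6% up and 55.6% down in T24, beside 37.2% and 40.8% of all genes, and 33.3% each way in RT4, beside 38.6% and 40%, so the RT4 shares were below those of all genes in both directions. The 5 largest falls in T24 were those of the small subunits NDUFA1 (log2 change -2.22), NDUFA8 (-2.21), NDUFB2 (-1.85), NDUFB1 (-1.61) and NDUFS6 (-1.46).

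NDUFA1, a membrane-arm accessory subunit encoded on the X chromosome, was 16.9, 16.2 and 14.4 CPM in T24 shFTO, against 78.5, 64.5 and 79.1 CPM in T24 shNC (edgeR BH-adjusted p = 1.36e-07). It went the other way in RT4, with 39.9, 44.1 and 43.1 CPM in shFTO, against 21.4, 32.1 and 24.97 CPM in shNC (log2 change 0.68, SE 0.14, edgeR BH-adjusted p = 0.00105). The groups were separate in both lines. NDUFA8 had 20.4, 18.2 and 22.3 CPM in T24 shFTO, against 94.99, 90.1 and 97.9 CPM in T24 shNC (edgeR BH-adjusted p = 7.5e-15), while in RT4 it had 33.1, 34.5 and 31.8 CPM in shFTO, against 30.5, 34.2 and 33.4 CPM in shNC, which overlapped.

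The iron-sulphur protein NDUFS7 led the T24 rises, with 116, 115 and 112 CPM in T24 shFTO, against 47.9, 48.5 and 50.04 CPM in T24 shNC (log2 change 1.23, SE 0.037, edgeR BH-adjusted p = 1.3e-14). In RT4 its groups overlapped at 43.3 to 46.8 CPM. NDUFA9 had 122, 124 and 122 CPM in T24 shFTO, against 58.3, 63.0 and 65.2 CPM in T24 shNC (log2 change 0.98, edgeR BH-adjusted p = 1.52e-12), and 56.1, 59.1 and 57.0 CPM in RT4 shFTO, against 77.0, 82.2 and 79.7 CPM in RT4 shNC (-0.47, edgeR BH-adjusted p = 2.49e-08). It was therefore higher in T24 shFTO and lower in RT4 shFTO than in the shNC libraries of the same line.

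The largest change of any tested nuclear member in RT4 was that of NDUFS8, an iron-sulphur protein of the peripheral arm. It had 442, 411 and 432 CPM in RT4 shFTO, against 38.7, 49.9 and 46.4 CPM in RT4 shNC (log2 change 3.24, SE 0.075, edgeR BH-adjusted p = 3.86e-14). NDUFV1, which binds the flavin that takes electrons from NADH, had 587, 568 and 618 CPM in RT4 shFTO, against 87.8, 96.1 and 89.97 CPM in RT4 shNC (log2 change 2.69, SE 0.054, edgeR BH-adjusted p = 8.84e-17). In T24, NDUFS8 rose by 0.90 (edgeR BH-adjusted p = 3.28e-08), and NDUFV1 was 319, 296 and 282 CPM in shFTO, against 311, 303 and 335 CPM in shNC, and was not called.

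Both genes lie on chromosome 11, NDUFV1 at 67606936 to 67612554 and NDUFS8 at 68030681 to 68036644 (RefSeq GRCh38.p14). Of 42 other tested genes within 1 Mb of NDUFS8, 38 rose and 2 fell in RT4, with a median log2 change of 2.80. Around NDUFV1 42 of 45 rose and 2 fell, with a median of 3.00. These windows overlap, and each gene is counted in the window of the other. NDUFS8 and NDUFV1 thus changed by about as much as the median of their neighbours.

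In the other direction, NDUFB9 was 34.0, 33.7 and 37.2 CPM in RT4 shFTO, against 89.2, 106 and 101 CPM in RT4 shNC (log2 change -1.501, SE 0.071, edgeR BH-adjusted p = 2.56e-11), but 118, 111 and 112 CPM in T24 shFTO, against 64.1, 62.9 and 73.8 CPM in T24 shNC (0.76, edgeR BH-adjusted p = 6.55e-08). NDUFB9, UQCRB of complex III and COX6C of complex IV are the 3 tested protein-coding members on chromosome 8. In RT4 they fell by 1.501, 1.473 and 1.44 on the log2 scale. The median over 640 tested genes of that chromosome was -0.96 in RT4. NDUFC1, a small membrane-arm subunit, fell in both lines, by 0.96 in T24 (edgeR BH-adjusted p = 1.99e-05) and 1.42 in RT4 (4.29e-07).

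Complex II, succinate dehydrogenase, links the respiratory chain to the citric acid cycle through 4 nuclear subunits. SDHA, the flavoprotein that oxidizes succinate, was 169, 152 and 162 CPM in T24 shFTO, against 481, 487 and 503 CPM in T24 shNC (log2 change -1.61, SE 0.045, edgeR BH-adjusted p = 3.71e-15). It was 223, 225 and 241 CPM in RT4 shFTO, against 98.4, 91.96 and 91.3 CPM in RT4 shNC (log2 change 1.29, SE 0.045, edgeR BH-adjusted p = 7.35e-14). No values overlapped, and the T24 change differed from the RT4 change by a log2 value of -2.90 (SE 0.063, edgeR BH-adjusted p = 1.41e-16).

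SDHB, the iron-sulphur subunit bound to SDHA, followed it in both directions, at -0.56 in T24 (edgeR BH-adjusted p = 2.4e-06) and 0.50 in RT4 (6.11e-06). Of the membrane anchors, SDHC was 110, 120 and 118 CPM in T24 shFTO, against 123, 123 and 122 CPM in T24 shNC, and was not called. In RT4, SDHC fell by 0.49 (edgeR BH-adjusted p = 1.07e-06). SDHD was not called in either line, with log2 values of -0.07 and 0.05.

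Complex III, the cytochrome bc1 complex, moves electrons from ubiquinol to cytochrome c. Of its 9 tested nuclear protein-coding members, 2 rose and 6 fell in T24 (22.2% and 66.7%, beside 37.2% and 40.8% of all genes), and 3 rose and 4 fell in RT4 (33.3% and 44.4%, beside 38.6% and 40%). UQCRQ, a small subunit beside cytochrome b, was 42.8, 30.9 and 33.8 CPM in T24 shFTO, against 155, 131 and 153 CPM in T24 shNC (log2 change -2.02, SE 0.18, edgeR BH-adjusted p = 4.34e-06). In RT4 it was 57.9, 67.6 and 68.4 CPM in shFTO, against 38.7, 59.2 and 45.8 CPM in shNC, which overlapped. The RT4 change of UQCRQ was called without the batch number as a replicate block (log2 change 0.42, edgeR BH-adjusted p = 0.0488) and not with it (0.43, edgeR BH-adjusted p = 0.084). It was also lost in 10 of 12 fits that each left out a library (all but those without T24 shFTO replicate 1 or RT4 shNC replicate 2), with edgeR BH-adjusted p between 0.0503 and 0.16.

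UQCRH, the hinge protein of complex III, was 95.8, 92.6 and 103 CPM in T24 shFTO, against 235, 239 and 250 CPM in T24 shNC (log2 change -1.31, SE 0.094, edgeR BH-adjusted p = 1.16e-07), and fell by 1.00 in RT4 (edgeR BH-adjusted p = 1.28e-06). UQCRHL, its intronless near copy, moved the same way at about 2 to 11 CPM, but reads shared by the pair make its value uncertain. The Rieske iron-sulphur protein UQCRFS1 had 91.8, 86.5 and 88.9 CPM in T24 shFTO, against 50.7, 52.2 and 54.9 CPM in T24 shNC (log2 change 0.76, edgeR BH-adjusted p = 2.02e-10). UQCR11, a small subunit, rose by 1.02 in T24 (edgeR BH-adjusted p = 3.33e-05). In RT4, UQCRB, which helps form the quinone site, was 57.6, 56.8 and 61.8 CPM in shFTO, against 145, 183 and 160 CPM in shNC (log2 change -1.47, SE 0.087, edgeR BH-adjusted p = 7.18e-09). UQCR10 and the core protein UQCRC2 fell in T24, by 0.54 and 0.24, and rose in RT4, by 0.61 and 0.44.

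Nuclear complex IV subunits surround the mitochondrial core, and NDUFA4 was counted among them. Of 12 tested protein-coding members, 1 rose and 7 fell in T24 (8.33% and 58.3%, beside 37.2% and 40.8% of all genes), and 4 rose and 5 fell in RT4 (33.3% and 41.7%, beside 38.6% and 40%). COX7C had 103, 89.2 and 99.9 CPM in T24 shFTO, against 271, 246 and 287 CPM in T24 shNC (log2 change -1.46, SE 0.13, edgeR BH-adjusted p = 3.4e-06), and in RT4 101, 94.0 and 95.4 CPM in shFTO, against 128, 185 and 139 CPM in shNC (-0.64, edgeR BH-adjusted p = 0.00124). COX7B had 46.4, 46.4 and 36.6 CPM in T24 shFTO, against 107, 96.6 and 114 CPM in T24 shNC (log2 change -1.30, SE 0.15, edgeR BH-adjusted p = 1.95e-05), and rose by 0.49 in RT4 (edgeR BH-adjusted p = 0.00991), a call lost on library totals (0.23, edgeR BH-adjusted p = 0.141). COX5A was the member that rose in T24 (0.23, edgeR BH-adjusted p = 0.0354), a call lost on library totals (0.05, edgeR BH-adjusted p = 0.555), with upper-quartile scaling (0.12, edgeR BH-adjusted p = 0.164) and in 6 of 12 fits that each left out a library. Those were the fits without any 1 of the T24 shFTO libraries, T24 shNC replicate 1 or 2, or RT4 shFTO replicate 1, with edgeR BH-adjusted p between 0.0522 and 0.113. COX7A2L, which joins complexes III and IV into supercomplexes, was 65.9, 71.9 and 71.7 CPM in RT4 shFTO, against 123, 134 and 132 CPM in RT4 shNC (log2 change -0.89, SE 0.044, edgeR BH-adjusted p = 8.65e-12), while in T24 it lay between 58.4 and 63.2 CPM in all libraries.

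Several complex IV subunits exist as broadly expressed and tissue-restricted isoforms. The testis isoform COX6B2 had 6, 9 and 4 counts in T24 shFTO, against 47, 39 and 68 counts in T24 shNC, and 4, 3 and 0 counts in RT4 shFTO, against 12, 39 and 29 counts in RT4 shNC. Its T24 log2 change of -3.06 (SE 0.42) thus rests on few reads, beside COX6B1 at 107 CPM in T24 shFTO and 101 CPM in T24 shNC. COX6B2 passed the filter on low counts only through the shNC libraries, where it was higher, so its direction does not count as a result. The muscle isoform COX7A1 had at most 11 counts in any library. COX7B2 and COX8C were counted only in RT4 shNC, with 17, 41 and 16 counts and 4, 10 and 13 counts, and had 0 counts in the other 9 libraries. None of these 3 passed the filter. Of the broadly expressed forms, COX8A fell by 0.76 in T24 (edgeR BH-adjusted p = 0.00113) and had a log2 value of 0.09 in RT4, COX7A2 had values of -0.01 and -0.13, and COX6A1 fell by 0.70 in T24 (9.43e-09). COX6A1 overlapped in RT4 (log2 change 0.17, edgeR BH-adjusted p = 0.013), a call lost without RT4 shFTO replicate 3, RT4 shNC replicate 1 or RT4 shNC replicate 3, and its direction turned on library totals (-0.099, edgeR BH-adjusted p = 0.0894).

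In the ATP synthase, the F1 head makes ATP, the c-ring turns with the proton flow, and the stalks hold the parts together. Of 18 tested nuclear protein-coding members of complex V, 3 rose and 13 fell in T24, and 6 rose and 10 fell in RT4. The shares were 16.7% up and 72.2% down in T24, beside 37.2% and 40.8% of all genes, and 33.3% up and 55.6% down in RT4, beside 38.6% and 40%. ATP5F1D, the delta subunit of the F1 rotor, was 133, 127 and 119 CPM in T24 shFTO, against 36.6, 36.9 and 39.5 CPM in T24 shNC (log2 change 1.75, SE 0.096, edgeR BH-adjusted p = 4.21e-09). In RT4 it was 45.1, 45.4 and 48.0 CPM in shFTO, against 55.2, 75.3 and 61.2 CPM in shNC (-0.47, SE 0.094, edgeR BH-adjusted p = 0.000569). The F1 head subunits ATP5F1A and ATP5F1B fell by 0.12 and 0.61 in T24 and by 0.98 and 0.66 in RT4. ATP5F1C, the central stalk, rose by 1.10 in T24 and 0.40 in RT4.

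ATP5IF1, the inhibitor that blocks ATP hydrolysis when the proton gradient collapses, had 36.6, 35.7 and 36.1 CPM in T24 shFTO, against 115, 98.1 and 117 CPM in T24 shNC (log2 change -1.61, SE 0.078, edgeR BH-adjusted p = 9.68e-11). In RT4 its values overlapped, at 51.0, 54.2 and 55.0 CPM in shFTO and 45.5, 56.0 and 54.0 CPM in shNC. Small membrane subunits moved both ways. ATP5MJ fell by 1.54 in T24 and 1.07 in RT4, while ATP5MK rose by 1.20 and 0.65. ATP5PD, a peripheral stalk subunit, fell by 0.67 in T24 (edgeR BH-adjusted p = 1.62e-07) and rose by 0.72 in RT4 (6.92e-08). ATP5ME, a membrane subunit, fell by 1.33 in RT4 (edgeR BH-adjusted p = 0.00251) and overlapped in T24 (log2 value -0.19).

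The c-ring protein is encoded by 3 genes, ATP5MC1, ATP5MC2 and ATP5MC3, that give the same mature protein. ATP5MC1 averaged 38.3 ± 2.25 CPM in T24 shFTO, against 93.1 ± 1.47 CPM in T24 shNC (log2 change -1.28, SE 0.091, edgeR BH-adjusted p = 2.73e-08). In RT4 it was 63.9, 62.9 and 55.0 CPM in shFTO, against 22.1, 29.5 and 28.2 CPM in shNC (log2 change 1.17, SE 0.091, edgeR BH-adjusted p = 6.92e-08). The groups were separate in both lines. Its share of the summed counts of the 3 genes was 12.5% ± 0.50 in T24 shFTO, against 19.2% ± 1.00 in T24 shNC, and 22.8% ± 1.07 in RT4 shFTO, against 7.81% ± 0.69 in RT4 shNC. ATP5MC2 fell in both lines, by 0.46 in T24 and 0.79 in RT4, as did ATP5MC3, by 0.66 and 0.32. The RT4 call of ATP5MC3 was lost without RT4 shFTO replicate 1 (-0.30, edgeR BH-adjusted p = 0.0601) or RT4 shNC replicate 2 (-0.30, edgeR BH-adjusted p = 0.0543).

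**Figure D3:**
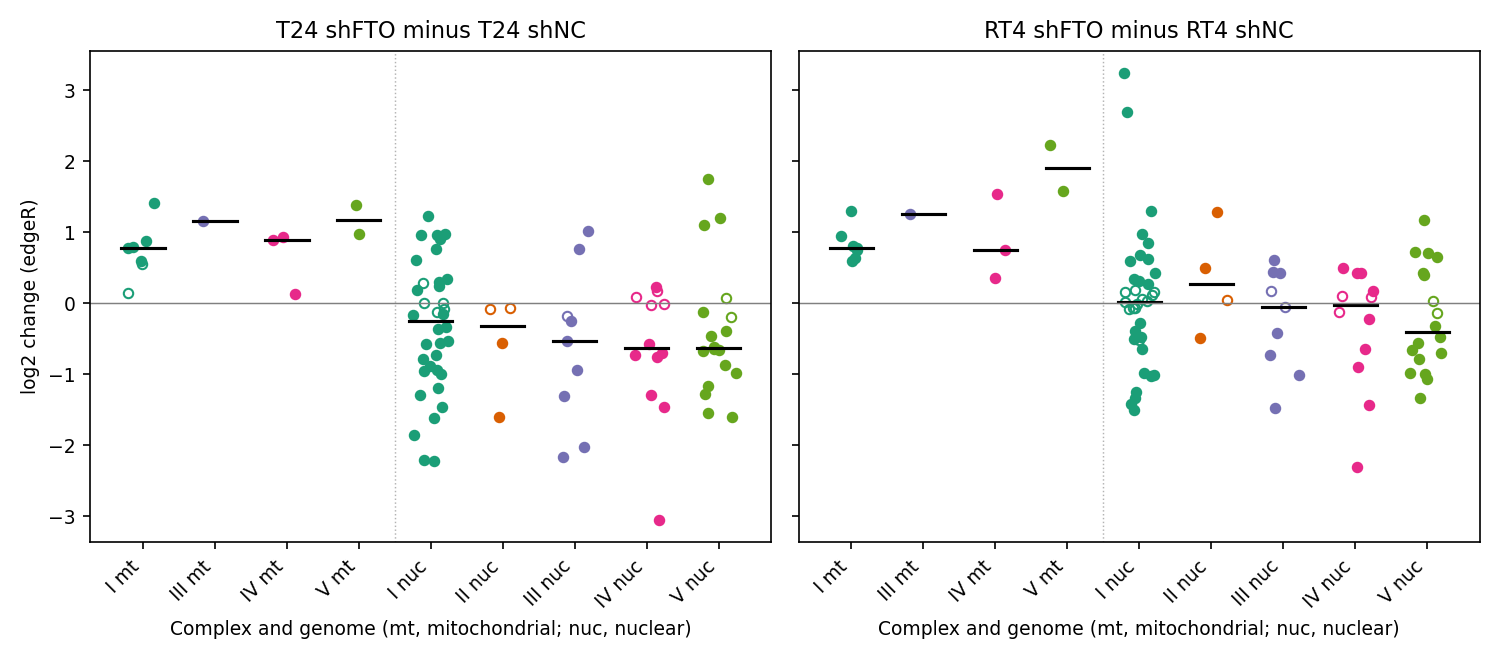
log2 change of every tested protein-coding member in T24 (left) and RT4 (right), by complex and genome, with filled points for called genes, open points for genes not called, and bars for medians. All mitochondrial points lie above 0, at medians of 0.88 and 0.81 over the 13 members. The nuclear points run from -3.06 to 1.75 in T24 and from -2.31 to 3.24 in RT4. The lowest point in each line is COX6B2, which passed the filter on low counts only through the shNC libraries.

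Across the lines, 11 mitochondrial members were called up in both. Of the 79 nuclear protein-coding members, 5 rose in both lines, 21 fell in both, 6 rose in T24 and fell in RT4, and 18 fell in T24 and rose in RT4. Of all tested genes, 14% rose in both, 15% fell in both, 16.4% rose in T24 and fell in RT4, and 17.4% fell in T24 and rose in RT4. The test of the difference between the lines called 68 of the 85 nuclear members, 27 higher and 41 lower in T24, where 75% of all genes were called, 36.3% higher and 38.7% lower. It called 3 of the 13 mitochondrial members (MT-ATP6, MT-CO1 and MT-CO2), each lower in T24. Without RT4 shNC replicate 3 it called 3 higher and 5 lower, and 1 was called higher without RT4 shNC replicate 1, on library totals, with no low-count filter and with DESeq2.

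**Figure D4:**
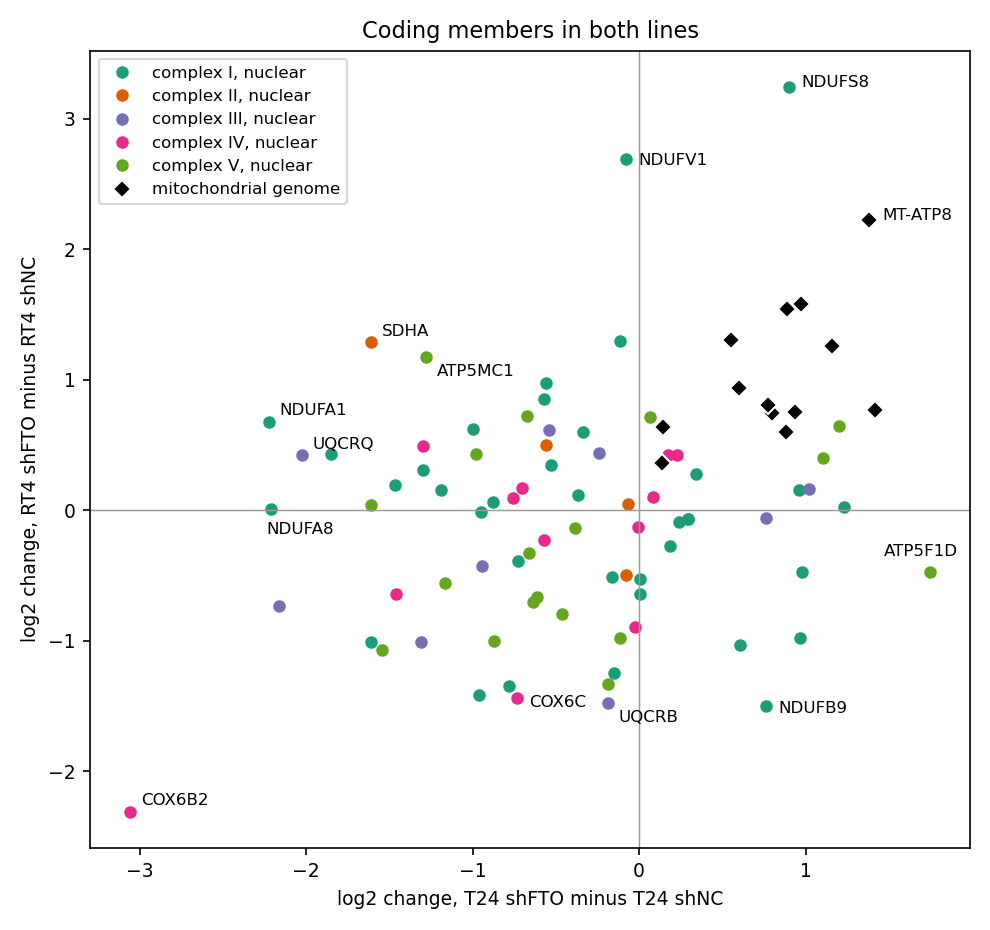
log2 change in T24 (horizontal) and RT4 (vertical) for the 92 tested protein-coding members, coloured by complex, with black diamonds for the mitochondrial genome. All diamonds lie in the upper right part, and the nuclear members lie on all sides. NDUFS8 and NDUFV1 reach 3.24 and 2.69 in RT4, SDHA, ATP5MC1 and NDUFA1 lie at the upper left, and NDUFB9 and ATP5F1D at the lower right.

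The controls of the lines differed too. Between T24 shNC and RT4 shNC, 55 of 85 nuclear members were higher and 17 lower in T24 shNC, where 80.1% of all genes were called, 40.3% higher and 39.7% lower. SDHA was 490 ± 11.5 CPM in T24 shNC, against 93.9 ± 3.94 CPM in RT4 shNC (log2 difference 2.39, SE 0.046, edgeR BH-adjusted p = 3.15e-17). NDUFB4 was also higher (2.06, edgeR BH-adjusted p = 1.08e-08), as were ATP5MC1 (1.79, 6.99e-10) and UQCRQ (1.60, 1.72e-05). NDUFS4 was lower, at 10.1 ± 1.44 CPM in T24 shNC, against 28.7 ± 1.82 CPM in RT4 shNC (edgeR BH-adjusted p = 9.49e-11). Of the 13 mitochondrial members, 7 were higher and 2 lower in T24 shNC. Without T24 shNC replicate 1 only 4 were higher, and the number lower was 4 without RT4 shNC replicate 3.

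Each protein-coding member was also placed by the group in which its mean level was highest. Of the 79 nuclear members, 44 (55.7%) were highest in T24 shNC, 15 in T24 shFTO, 10 in RT4 shFTO and 10 in RT4 shNC, where 25% of all tested genes were highest in T24 shNC. T24 shNC enters the T24 comparison and the comparison of controls, so the falls in T24 shFTO and the higher levels relative to RT4 shNC share these libraries. Of the 13 mitochondrial members, 9 were highest in T24 shFTO and 4 in RT4 shFTO, where 24.9% and 22.6% of all tested genes were highest. All 13 were lowest in a shNC group, 5 in T24 and 8 in RT4, where 22.5% and 23.4% of all tested genes were lowest.

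Position was shared by several members with large changes. ATP5F1D, NDUFS7 and UQCR11 lie within 1 Mb of each other on chromosome 19, from 1241751 to 1605462, and rose in T24 by 1.75, 1.23 and 1.02 on the log2 scale. Of 76 other tested genes within 1 Mb of ATP5F1D, 54 rose and 17 fell in T24, with a median of 1.73. Around SDHA on chromosome 5 (218320 to 268746), 18 of 23 neighbours fell and 4 rose in T24 (median -1.69), and 13 rose and 4 fell in RT4 (median 0.73). Of the called members with at least 5 such neighbours, 42 of 63 (66.7%) in T24 and 43 of 56 (76.8%) in RT4 had the sign of their neighbours' median. The same held for 63.9% of all called genes in each line. COX6B2 had the opposite sign in T24, where 28 of its 48 neighbours rose and 12 fell (median 0.64). Its own direction does not count as a result, because it passed the filter on low counts only through the shNC libraries. ATP5MC1 rose by 1.17 in RT4, where 17 of its 41 neighbours rose and 18 fell.

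**Figure D5:**
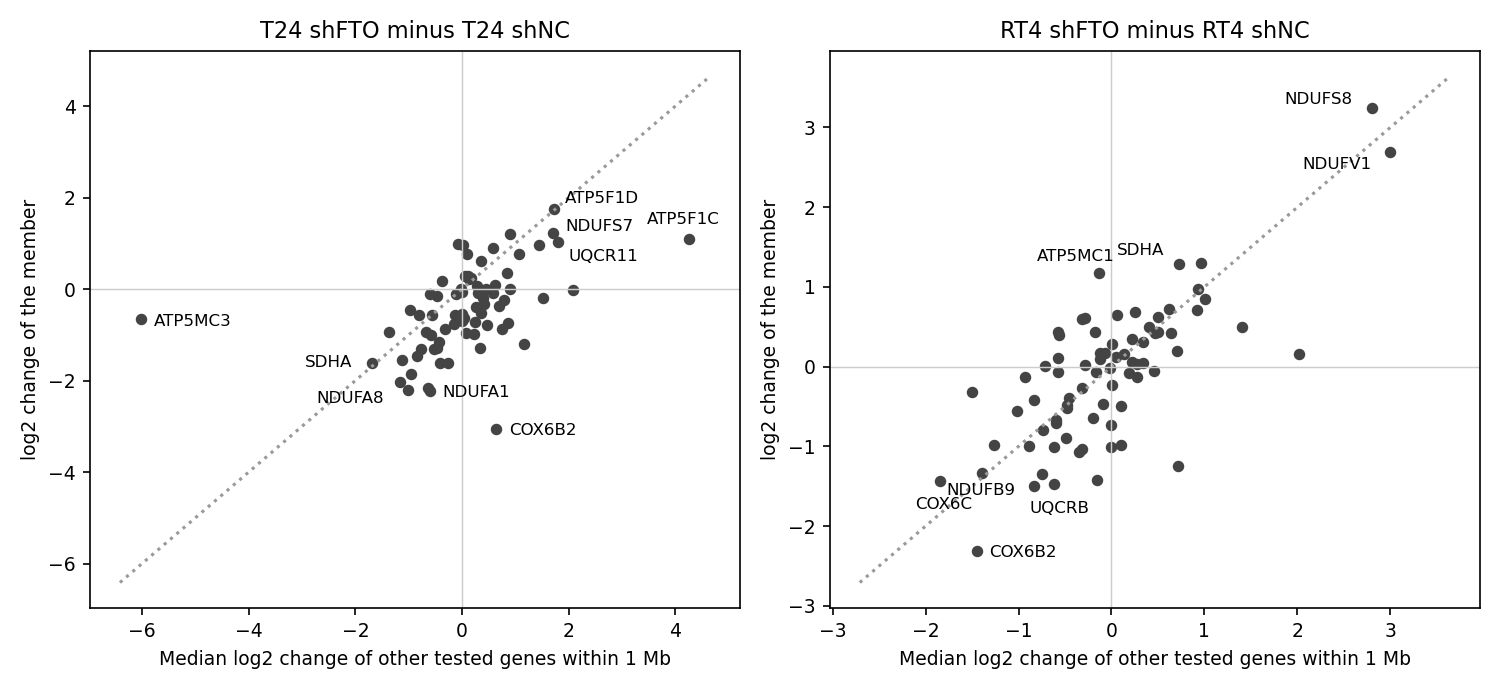
log2 change of each of 76 nuclear protein-coding members (vertical) against the median log2 change of the other tested genes within 1 Mb (horizontal), in T24 (left) and RT4 (right). The dotted line marks equal values, near which ATP5F1D and SDHA lie in T24, and NDUFS8 and NDUFV1 in RT4, at neighbour medians of 2.80 and 3.00. COX6B2 lies far below it in T24, and ATP5MC3 lies farthest left there, at a neighbour median of -6.01.

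Many respiratory chain promoters are known targets of the transcription factors NRF1, GABPA (also called NRF2) and YY1. RefSeq promoter sequences (GRCh38.p14, 250 bases before to 50 after the gene start) were matched for 67 protein-coding nuclear members and searched on both strands. The NRF1 core motif GCATGCGC was in 19.4% of them and 3.27% of all 27305 promoters, the GABPA motif CCGGAAG in 28.4% and 10.7%, and the YY1 motif AAGATGGC in 16.4% and 3.03%. None of these motifs contains another, and a match does not show that a factor binds. The 3 promoters printed next show a motif in capitals in genes that fell (NDUFA8) or rose (UQCR11 and NDUFS7) in T24. In NDUFA8 the capitals also take in the GC before the core, and the NDUFS7 stretch holds the NRF1 core in lower case as well.
NDUFA8, chr9:122159730-122160029, minus strand, NRF1 core motif: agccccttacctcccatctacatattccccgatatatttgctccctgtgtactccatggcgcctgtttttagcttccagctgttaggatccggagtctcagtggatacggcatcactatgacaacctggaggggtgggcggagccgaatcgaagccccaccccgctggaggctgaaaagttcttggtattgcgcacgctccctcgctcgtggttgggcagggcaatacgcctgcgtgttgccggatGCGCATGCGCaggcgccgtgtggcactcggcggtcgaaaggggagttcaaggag
UQCR11, chr19:1605413-1605712, minus strand, GABPA motif in both orientations: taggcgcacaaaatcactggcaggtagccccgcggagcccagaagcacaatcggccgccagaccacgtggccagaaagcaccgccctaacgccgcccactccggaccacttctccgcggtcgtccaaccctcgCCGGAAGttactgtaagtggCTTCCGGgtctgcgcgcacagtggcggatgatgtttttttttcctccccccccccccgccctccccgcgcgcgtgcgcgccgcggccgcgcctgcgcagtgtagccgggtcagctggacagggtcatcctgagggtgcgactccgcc
NDUFS7, chr19:1383657-1383956, plus strand, YY1 motif: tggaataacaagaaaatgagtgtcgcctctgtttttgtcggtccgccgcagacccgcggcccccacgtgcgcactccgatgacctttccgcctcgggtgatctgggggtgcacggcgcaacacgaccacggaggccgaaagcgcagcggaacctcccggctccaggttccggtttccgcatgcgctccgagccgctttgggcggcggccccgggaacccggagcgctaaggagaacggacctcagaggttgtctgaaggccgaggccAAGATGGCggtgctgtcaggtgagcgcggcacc

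Members with a motif moved in both directions. Of 19 members with the GABPA motif, 3 rose and 12 fell in T24, and 7 rose and 6 fell in RT4, beside 13 up and 41 down of 65 matched and tested members in T24 and 24 up and 22 down in RT4. Of 11 with the YY1 motif, 3 rose and 5 fell in T24 and 3 rose and 4 fell in RT4. Of 13 with the NRF1 core motif, 2 rose and 9 fell in T24, and 5 rose and 4 fell in RT4.

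Related genes outside the name rule were counted from lists. Each count is to be read beside all tested genes, of which 37.2% rose and 40.8% fell in T24, and 38.6% rose and 40% fell in RT4. Of 6 further subunits and partners, 3 rose and 3 fell in T24, and 2 rose and 3 fell in RT4. COX4I1, a complex IV subunit, fell by 0.60 in T24 (edgeR BH-adjusted p = 1.25e-09) and 0.86 in RT4 (1.06e-11). CYC1, cytochrome c1 of complex III, rose by 0.47 in T24 (edgeR BH-adjusted p = 9.63e-07) and fell by 0.95 in RT4 (1.45e-10).

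Of 29 genes that copy, transcribe or process mitochondrial nucleic acids, 17 rose and 7 fell in T24, and 5 rose and 16 fell in RT4, with medians of 0.25 and -0.25, where 78% of all genes were called in T24 and 78.6% in RT4. POLRMT, the mitochondrial RNA polymerase, was 269 CPM on average in T24 shFTO, against 53.0 CPM in T24 shNC (log2 change 2.34, edgeR BH-adjusted p = 8.58e-18), and 48.7 CPM in RT4 shFTO, against 73.3 CPM in RT4 shNC (-0.59, edgeR BH-adjusted p = 5.94e-10). HSD17B10, a subunit of the mitochondrial RNase P that cuts tRNAs out of the long transcripts, fell by 1.97 in T24 (edgeR BH-adjusted p = 4.8e-15) and rose by 0.62 in RT4 (1.58e-08). TFAM, which packages mitochondrial DNA and starts its transcription, fell by 0.46 in T24 (edgeR BH-adjusted p = 6.4e-08) and 0.96 in RT4 (5.65e-12). LRPPRC, which stabilizes mitochondrial messages, rose by 0.75 in T24 (edgeR BH-adjusted p = 3.66e-12) and fell by 0.72 in RT4 (6.4e-12). POLRMT and LRPPRC thus rose in T24 and fell in RT4, HSD17B10 did the opposite, and TFAM fell in both lines. Changes of chromosomal neighbours were read for protein-coding members only, so they are not given for POLRMT or the other genes listed here.

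Of 12 regulators of nuclear respiratory genes, 9 rose and 2 fell in T24, and 4 rose and 5 fell in RT4. PPRC1, a coactivator of NRF1, rose by 1.47 in T24 and 1.69 in RT4 (edgeR BH-adjusted p = 2.12e-15 and 2.85e-16), as did TFEB, a regulator of lysosome genes, by 1.31 and 2.36. PPARGC1B, a coactivator related to PPARGC1A, fell by 2.19 and 1.05. GABPA rose by 0.75 in T24 (edgeR BH-adjusted p = 8.59e-10) and fell by 1.51 in RT4 (4.97e-14).

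Assembly factors insert cofactors and join subunits. For complex I, 9 of 18 rose and 6 fell in T24, and 6 rose and 8 fell in RT4. For complexes II and III, 4 of 13 rose and 7 fell in T24, and 2 rose and 10 fell in RT4, where SDHAF3, an assembly factor of SDHB, was 0.607 CPM in shFTO, against 9.57 CPM in shNC (log2 change -3.98, edgeR BH-adjusted p = 1.08e-13). For complex IV, 6 of 21 rose and 10 fell in T24, and 5 rose and 11 fell in RT4. SURF1, needed to build the MT-CO1 module, fell by 0.88 in T24 (edgeR BH-adjusted p = 9.57e-10) and 1.90 in RT4 (4.85e-14). For the ATP synthase, 3 of 6 rose and 2 fell in T24, and 1 rose and 5 fell in RT4.

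In the citric acid cycle, which supplies the chain with NADH and succinate, 5 of 13 rose and 8 fell in T24, and 8 rose and 3 fell in RT4. IDH3A, a subunit of isocitrate dehydrogenase, fell by 2.02 in T24 (edgeR BH-adjusted p = 1.46e-15) and rose by 1.501 in RT4 (5.74e-14), the same directions as SDHA. OGDH, of the oxoglutarate dehydrogenase complex, fell by 1.42 in T24 (edgeR BH-adjusted p = 4.34e-16) and rose by 0.79 in RT4 (9.4e-13). Of 18 cristae and outer membrane genes, 8 rose and 7 fell in T24, and 8 rose and 9 fell in RT4. PHB2, a prohibitin of the inner membrane, rose by 1.38 in T24 (edgeR BH-adjusted p = 2.27e-13) and fell by 1.39 in RT4 (1.99e-13).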

How the data were processed

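Per the labels' protocols, total RNA was extracted with Trizol, poly(A)-selected and sequenced as paired 150-base reads. Per the submitters' processing notes, fastp 0.20.0, STAR 2.7.9a and featureCounts 2.0 were used, and builds mm39, GRCh38 and hg38 are named without roles. The authors deposited raw counts for 43557 genes. The sources used here name neither annotation, strand setting nor the handling of multi-mapping reads. Members and lists were chosen with earlier results of these data known.

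Counts were filtered with filterByExpr by group (23070 genes left) and scaled with TMM. edgeR 4.0.16 (R 4.3.3) fitted all 12 libraries in 4 groups by quasi-likelihood (robust, 8 residual degrees of freedom, biological coefficient of variation 0.077). Adjusted p-values are Benjamini-Hochberg (BH) over all tested genes, called under 0.05. An SE is the log2 change over the root of its F statistic. The fit was also tested on simulated data with known changes. Replicates differed by more than sampling noise (chi-squared per degree of freedom 5.47 to 16.3). Named genes are all mitochondrial members, isoform pairs, FTO, and genes among the 3 smallest p per list and line. The largest called, non-overlapping changes per complex and direction are also named. These are 2 for each comparison of shFTO with shNC, and 1 for the difference and the controls. Genes named beyond these (NDUFB2, NDUFB1, NDUFS6, TFAM, LRPPRC, ATP5F1A, ATP5F1B and others) were chosen after their values were seen.

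Batch numbers equal the replicate numbers, and no methods text states that they mark a shared block. As a check, residuals of same-numbered shFTO and shNC libraries correlated at 0.101, -0.036 and 0.019 in T24 and at -0.098, -0.022 and -0.020 in RT4 over 10876 genes. Alternatives were RLE, upper-quartile and library-total scaling, TMM without mitochondrial rows, 2 other low-count filters, DESeq2 1.42.0, limma-voom (limma 3.58.1), separate fits per line, a block for batch number, thinning to the smallest library, and leaving out each library. Adding nuclear copies to their gene was chosen after seeing the data.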

Additional observations from a re-analysis of the deposited data

Results flagged for a closer look

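The difference between the lines (T24 change minus RT4 change, edgeR BH-adjusted) was called for 68 nuclear and 3 mitochondrial members. The largest in each complex were NDUFB9 (2.26 on the log2 scale) and NDUFA1 (-2.90) in complex I, SDHC (0.41) and SDHA (-2.90) in complex II, UQCRB (1.29) and UQCRQ (-2.45) in complex III, COX7A2L (0.87) and COX7B (-1.79) in complex IV, and ATP5F1D (2.22) and ATP5MC1 (-2.45) in complex V. The mitochondrial members were MT-ATP6 (-0.61), MT-CO1 (-0.22) and MT-CO2 (-0.66). FTO, the targeted gene, differed by -1.04.

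Rows outside the members also carried signal above the shNC libraries of the same line. The nuclear copy MTATP6P1 averaged 2818 CPM in T24 shFTO, against 492 CPM in T24 shNC. MTND1P23, which matches part of MT-ND1, averaged 240.1 CPM in T24 shFTO, against 1.72 CPM in T24 shNC, and was 2.77 CPM in RT4 shFTO, against 0.478 CPM in RT4 shNC.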

How the results depend on the processing

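Counts of nuclear members called in either line stayed within 1.5 times the value reported under every alternative run. Changes of named members and FTO between shFTO and shNC were called 92 times. Of these, 82 held on library totals, and 86 with upper-quartile scaling or no low-count filter. With the batch number as a replicate block 91 held, and only the RT4 call of UQCRQ was lost (0.43 instead of 0.42). Library totals turned MT-CO1 and MT-ND1 in T24 to -0.042 and -0.036 and COX6A1 in RT4 to -0.099. For the difference between the lines, mitochondrial members called higher in T24 numbered 1 instead of 0 on library totals, with no filter and with DESeq2, and those called lower numbered 1 instead of 3 on library totals, with no filter and with copies added to their gene. Leaving out each library gave 0 to 3 higher and 2 to 5 lower, with both highest values without RT4 shNC replicate 3. Between the controls, members called lower numbered 1 instead of 2 with RLE and upper-quartile scaling, and leaving out each library gave 4 to 8 higher (4 without T24 shNC replicate 1) and 2 to 4 lower (4 without RT4 shNC replicate 3). With the counts of all 145 copy rows added, T24 shFTO had 1098 mitochondrial counts per 100 nuclear counts. The causes were not tested. Depth limits COX6B2, COX7B2 and COX8C, which had at most 68, 41 and 13 counts in any library. How far reads shared between a gene and its copies limit the other values was not tested.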
